A study of Mus musculus with 14 samples.

Results

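The comparison described here is that of mouse CD8 T cells labelled as DOT1L knockout (KO, 3 libraries) with cells labelled as DOT1L wild type (WT, 3 libraries). These are 6 of the 14 RNA libraries of the study, taken by their names in the count table and by their titles. All 6 came from mice heterozygous for CreERT2, a tamoxifen-inducible Cre recombinase, and heterozygous for OT-I, a T cell receptor transgene specific for an ovalbumin peptide. The KO mice were homozygous for the floxed Dot1l allele and the WT mice carried Dot1l without it. Isolated CD8 T cells were activated with antibodies to CD3 and CD28 on day 0, and cells of both groups received 10 nM 4-hydroxytamoxifen on that day, so Cre and its inducer were shared by the controls. RNA was taken on day 8. No source used here gives the ages of the mice or the promoter driving CreERT2. Although the titles call the libraries biological replicates, no source says that each came from a separate mouse. Xist and Ddx3y counts, given below, differed within each group, so the libraries of a group were not all from the same mouse. The p-values measure the spread between these libraries, which may be technical in part. "Higher" and "lower" below mean KO-labelled over WT-labelled libraries.

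DOT1L is the enzyme that methylates a lysine in the globular core of histone H3, a mark found along the bodies of transcribed genes. CD8 T cells recognise peptide on MHC class I through the T cell receptor and the CD8 co-receptor. After activation they pass from a naive programme, with lymph node homing receptors and quiescence factors, to an effector programme with perforin and granzymes, the proteins of the cytotoxic granule.

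The knockout label could not be checked from whole-gene counts. Dot1l (ENSMUSG00000061589, chr10:80755206-80795461, build mm10) was counted at 215, 197 and 186 CPM in KO and 131, 138 and 129 CPM in WT (replicates 1, 2 and 3 here and throughout), where CPM are counts scaled to a common TMM-adjusted library total. All 3 KO libraries lay above all 3 WT libraries (log2 fold change 0.59 ± 0.07 (SE), edgeR adjusted p = 1.3e-05). With 1 value per gene, the floxed part cannot be read separately. The cells carried T cell transcripts in both groups. Cd3e, a signalling chain of the T cell receptor, was at 555, 578 and 581 CPM in KO and 538, 454 and 539.9 CPM in WT, and Thy1, a surface protein of T cells, at 1509.8, 1624 and 1566 CPM in KO and 1575, 1486 and 1493 CPM in WT. Cd8a (ENSMUSG00000053977, chr6:71373427-71379173), one of the CD8 co-receptor chains that define the cell type, was present in all 6 libraries but at 120.2, 131 and 87.5 CPM in KO and 665, 696 and 706 CPM in WT. Cd4 did not exceed 0.769 CPM in any library. In bulk RNA, fewer cells of a type and less RNA per cell cannot be told apart, and this touches each result below.

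The 6 libraries held between 5643724 and 20095758 counts, so that the deepest had 3.56 times the counts of the shallowest, and the deepest library of each group held more than the remaining 2. Within groups the correlation of log expression was 0.990 to 0.995 in KO and 0.987 to 0.993 in WT, and it was 0.939 to 0.960 between groups. The first principal component held 79.8% of the variance and separated the groups. The second held 8.95%, and on it KO replicate 3 and WT replicate 2 stood apart from the other libraries. These were the libraries with Xist counts (6056 and 9002), and the other 4 held Ddx3y, so each group had 1 library with Xist and 2 with Ddx3y. The labelled sex differed from this in 4 of the 6 libraries. Mitochondrial genes took 1.41% to 1.78% of counts in KO and 1.05% to 1.41% in WT.

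A large part of the transcriptome differed. Of 11570 genes tested with edgeR's quasi-likelihood test, 4676 (40.4%) were called at a Benjamini-Hochberg adjusted p of 0.05. Of these, 2345 (20.3%) were higher and 2331 (20.1%) lower, and 4525 of the called genes (96.8%) had groups that did not overlap, against 51.1% of all genes tested. The numbers were even but the sizes were not. Genes called with at least a 2-fold change numbered 802 higher (6.93%) and 255 lower (2.2%). At 4-fold the counts were 352 and 48, at 8-fold 154 and 12, and at 16-fold 84 and 1. The median log2 fold change was 0.61 among genes called higher, -0.43 among genes called lower and -0.01 over all genes. Genes called higher took 20.1% of the counts in each KO library and 13.9% to 14.8% in WT libraries. Genes called lower took 23.55% to 23.82% in KO libraries and 30.02% to 31.62% in WT libraries. The 2-fold counts depended on the filter on low counts: with a mean of at least 10 CPM they were 203 higher and 114 lower, and with no filter 1231 and 467.

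**Figure D1:**
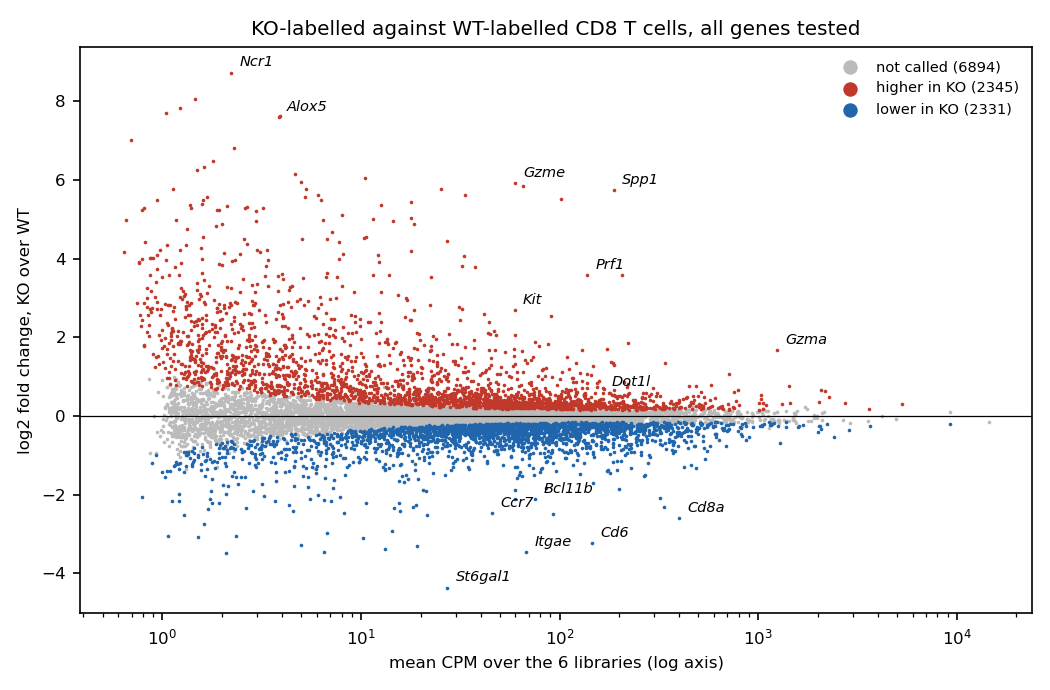
Each point is 1 of the 11570 genes tested, with the mean CPM over the 6 libraries on a log axis and the log2 fold change of KO over WT. Red points (2345) were called higher, blue points (2331) lower and grey points (6894) were not called. The largest rises lie at low mean CPM, and 154 rises but 12 falls reach 8-fold. Some of the genes at low mean CPM were tested through 1 group alone and had to differ.

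The asymmetry lay in weakly expressed genes. In the lowest quintile of mean CPM (under 6.06 CPM), 520 of 2314 genes (22.5%) were called at least 2-fold higher and 106 (4.58%) at least 2-fold lower. These shares include genes, such as Ncr1 and Col18a1, under the filter's limit of 1.13 CPM in each library of 1 group. Such genes entered the test through the other group alone and had to differ. How many of the 520 and 106 were of this kind was not counted. In the top quintile (above 101 CPM) the counts were 21 (0.908%) and 30 (1.30%), while calls of any size there were 418 higher and 684 lower. Genes of the longest quintile of gene span, from 62425 to 1972576 bases, held more calls in the lower direction (749 of 2314, 32.4%) than in the higher (485, 21%), and also the largest share of at least 2-fold rises (248, 10.7%). The shortest quintile had 324 lower (14.0%) and 432 higher (18.7%). Without KO replicate 2, the 216 genes called lower in the lowest CPM quintile were 127.

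A set of genes was at or near 0 in WT and counted in KO. With at most 3 counts summed over one group and at least 30 over the other, 79 genes were counted in KO only at this limit and 6 in WT only. Of the 79, 77 were protein-coding and 17 had no count in any WT library, where 3 counts were taken as the floor over the group. Ncr1, which encodes the natural killer receptor NKp46, was at 3.49, 4.65 and 5.16 CPM in KO and had 0 counts in all WT libraries, so that it was at least 51.4-fold higher (164 counts against 0). Emp2, a small membrane protein of the PMP22 family, had 285 counts in KO against 1 in WT, which is a 268-fold difference with an exact 95% interval of 47.7 to 10612. Alox5, the lipoxygenase that starts leukotriene synthesis, had 280 and 1 counts, a 263-fold difference (46.8 to 10426). Both were counted in each KO library and in only 1 WT library. The next were Rbm24, an RNA-binding protein (160 and 1 counts), Angpt1, a ligand of the receptor TIE2 (138 and 3), and Scarf2, a scavenger receptor family member (135 and 3). Of the 6 genes of the opposite kind, 1 was protein-coding, Fxyd7, with 1 count in KO and 32 in WT. The next protein-coding genes did not reach 30 counts in WT: Tctex1d1 had 3 counts in KO and 26 in WT and Jchain, the joining chain of secreted immunoglobulin, 2 and 25. These intervals and bounds cover counting error only.

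Promoters from among the largest changes in each direction are printed because the groups of large changes differed from other genes in CpG content. Those printed are the first on each side, in order of change, with a usable promoter sequence. Itgae, which ranked between St6gal1 and Abca3, was passed over. The sequences are from RefSeq with build GRCm38.p6 and run from 250 bases before to 50 bases after the first listed start, 5′ to 3′ on the gene's strand, with CpG dinucleotides in capitals. Higher in KO were Col18a1 (chr10:77166481-77166780, minus strand, 16 CpG), Gzmg (chr14:56159530-56159829, minus, 2 CpG) and Tns3 (chr11:8664486-8664785, minus, 33 CpG). Lower in KO were St6gal1 (chr16:23224490-23224789, plus, 7 CpG), Abca3 (chr17:24351773-24352072, plus, 29 CpG) and Fam71b (chr11:46404478-46404777, plus, 3 CpG).
Col18a1: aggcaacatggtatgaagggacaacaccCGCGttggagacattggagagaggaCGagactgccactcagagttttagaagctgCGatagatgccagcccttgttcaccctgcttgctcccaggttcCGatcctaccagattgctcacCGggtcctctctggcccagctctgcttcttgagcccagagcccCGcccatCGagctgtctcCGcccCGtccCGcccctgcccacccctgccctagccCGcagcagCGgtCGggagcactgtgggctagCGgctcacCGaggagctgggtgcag
Gzmg: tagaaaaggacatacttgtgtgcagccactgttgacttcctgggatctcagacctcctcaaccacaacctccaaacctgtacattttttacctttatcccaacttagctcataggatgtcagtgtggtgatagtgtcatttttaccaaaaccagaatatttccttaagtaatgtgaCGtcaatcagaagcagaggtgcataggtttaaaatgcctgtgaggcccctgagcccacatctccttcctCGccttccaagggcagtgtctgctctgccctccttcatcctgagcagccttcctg
Tns3: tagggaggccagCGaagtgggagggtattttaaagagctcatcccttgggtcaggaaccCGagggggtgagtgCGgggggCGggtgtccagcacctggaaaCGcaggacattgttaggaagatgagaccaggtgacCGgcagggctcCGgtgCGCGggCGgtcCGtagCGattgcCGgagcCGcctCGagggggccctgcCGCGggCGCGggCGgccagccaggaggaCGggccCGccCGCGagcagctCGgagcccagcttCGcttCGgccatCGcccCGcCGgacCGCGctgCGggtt
St6gal1: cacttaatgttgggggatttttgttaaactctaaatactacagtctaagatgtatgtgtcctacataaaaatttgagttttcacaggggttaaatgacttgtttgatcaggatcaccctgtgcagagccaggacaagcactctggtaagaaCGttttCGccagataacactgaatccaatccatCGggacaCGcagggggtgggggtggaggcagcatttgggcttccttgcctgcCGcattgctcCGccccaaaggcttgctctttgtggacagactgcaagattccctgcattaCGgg
Abca3: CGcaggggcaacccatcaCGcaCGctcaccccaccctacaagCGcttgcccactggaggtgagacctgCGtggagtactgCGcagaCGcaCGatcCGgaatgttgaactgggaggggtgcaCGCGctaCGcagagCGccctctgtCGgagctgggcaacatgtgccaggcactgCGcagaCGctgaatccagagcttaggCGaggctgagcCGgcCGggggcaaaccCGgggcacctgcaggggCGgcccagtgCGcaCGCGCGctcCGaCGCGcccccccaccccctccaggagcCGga
Fam71b: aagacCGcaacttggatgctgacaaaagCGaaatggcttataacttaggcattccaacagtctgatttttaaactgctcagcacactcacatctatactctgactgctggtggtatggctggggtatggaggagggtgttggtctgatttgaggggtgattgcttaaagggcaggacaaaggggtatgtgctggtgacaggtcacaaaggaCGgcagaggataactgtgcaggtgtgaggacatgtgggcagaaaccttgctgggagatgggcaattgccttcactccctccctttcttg
The 6 promoters span both kinds, CpG-poor in Gzmg and Fam71b and CpG-dense in Tns3 and Abca3, in each direction.

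A promoter was found for 8673 of the 10745 protein-coding genes tested (80.7%). Their CpG observed-to-expected ratio, which is 1 where CpG occurs as often as the base composition predicts, had a median of 0.787. It was 0.673 for the 591 genes at least 2-fold higher and 0.492 for the 163 at least 2-fold lower. For the 115 genes at least 8-fold higher it was 0.549 and for the 27 at least 4-fold lower 0.263. In the quintile of lowest CpG ratio, 13.0% of genes were at least 2-fold higher and 5.01% at least 2-fold lower, against 3.86% and 0.865% in the quintile of highest ratio. A ratio under 0.6 was found in 1270 genes below the median level and 806 above it, so the split was repeated within levels. Among genes below the median level, 17.9% of those with a ratio under 0.6 and 10.1% of the others were at least 2-fold higher, and above the median level 3.10% and 0.821%. The letters TGTGGT, read on both strands as the core of a RUNX site, stood in 12.6% of the promoters of tested genes, in 16.9% of every promoter in the table, and in 28.7% of those of genes at least 8-fold higher (33 of 115). It stood in 14.9% of those at least 2-fold higher, 20.2% of those at least 2-fold lower and 11.1% of those at least 4-fold lower (3 of 27). The letters TGANTCA, the core of an AP-1 site, stood in 4.51% of tested promoters, 7.93% of every promoter and 8.70% of those at least 8-fold higher (10 of 115), with 8.59% at least 2-fold lower and 11.1% at least 4-fold lower. TATAAA stood in 6.45% of tested promoters, 14.2% of every promoter and 7.83% of those at least 8-fold higher, and GGAAGT, the core of an ETS site, in 30.4%, 24.1% and 22.6%. In the genes at least 4-fold lower TATAAA stood in 18.5% (5 of 27) and GGAAGT in 37.0% (10 of 27). None of the 4 motifs contains another. A match of letters is a description of the sequence and not of binding.

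**Figure D2:**
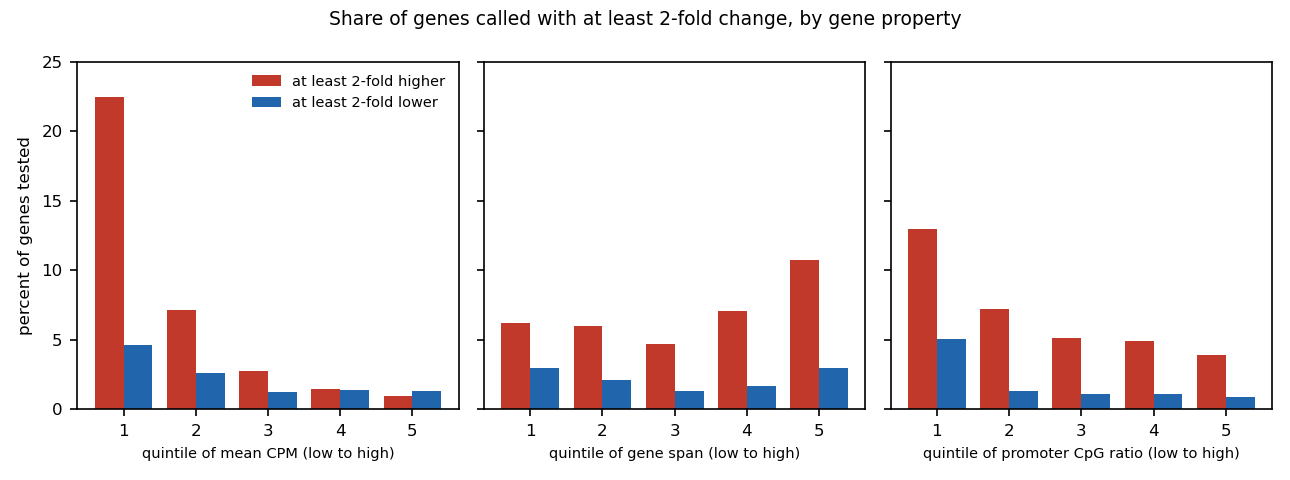
Bars give the percent of genes tested that were called at least 2-fold higher (red) or lower (blue) in KO, by quintile of mean CPM, of gene span and of promoter CpG observed-to-expected ratio. Rises fall from 22.5% in the lowest to 0.908% in the top CPM quintile, and from 13.0% to 3.86% across the CpG quintiles. The lowest CPM quintile includes genes tested through 1 group alone, which had to differ.

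The 12 largest rises among genes with at least 5 CPM in KO were in Col18a1, Gzmg, Tns3, Gzme, Scin, Spns2, Fcgr3, Spp1, Car2, Sh2d1b1, Mcpt8 and Gzmd. Col18a1, which encodes the basement membrane collagen that yields endostatin, was at 7.61, 8.57 and 11.4 CPM in KO and 0.118, 0.18 and 0.0998 CPM in WT (log2 fold change 6.16 ± 0.36 (SE), edgeR adjusted p = 4.7e-08). Spp1, which encodes osteopontin, was at 325, 319 and 462 CPM in KO and 7.78, 3.61 and 7.69 CPM in WT. Scin, an actin-severing protein of the gelsolin family, was at 113, 115 and 159 CPM in KO and 2.24, 1.08 and 2.6 CPM in WT. In each of these the lowest KO library lay more than an order of magnitude above the highest WT library. Tns3, a tensin that links integrins to actin, had a log2 fold change of 5.93. Spns2, the exporter of sphingosine-1-phosphate, was at 9.24, 9.41 and 12.3 CPM in KO and 0.354, 0.18 and 0.0998 CPM in WT. Fcgr3, a low-affinity receptor for immunoglobulin G, was at 44.3, 41.2 and 62.8 CPM in KO and 1.77, 0.722 and 0.549 CPM in WT. Car2, a carbonic anhydrase, was at 1.28 ± 0.11 CPM in WT and 65.2 ± 8.29 CPM in KO (log2 fold change 5.61 ± 0.15 (SE), edgeR adjusted p = 3.0e-10), where ± after a mean CPM is the SD over n = 3 libraries per group, here and throughout. The adaptor Sh2d1b1, which binds SLAM family receptors in natural killer cells, was at 11.7, 10.1 and 14.3 CPM in KO and 0, 0.18 and 0.349 CPM in WT, and Mcpt8, a basophil granule protease, at 9.73, 8.62 and 12.6 CPM in KO and 0.236, 0 and 0.25 CPM in WT. Groups that did not overlap were a condition for these 12 genes. Col18a1, Gzmg, Tns3, Spns2, Sh2d1b1 and Mcpt8 were under the filter's limit of 1.13 CPM in each WT library. They entered the test through KO counts alone and had to differ, so a p-value for them is no independent support. KO replicate 3 held the highest value in each of the 7 given here by library.

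**Figure D3:**
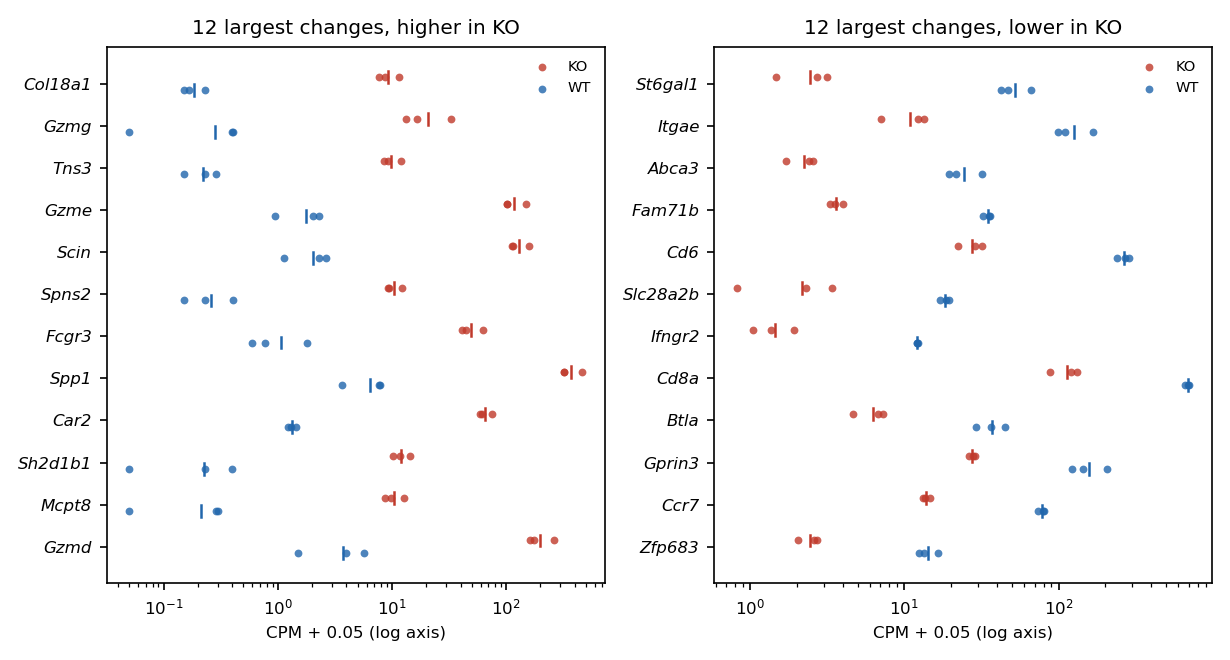
Points are single libraries and ticks are group means, as CPM plus 0.05 on a log axis, for the 12 largest rises and the 12 largest falls. The genes were chosen for groups that do not overlap (KO red, WT blue) and for at least 4 counts in the lower group, and 3 of the rises, Gzmg, Sh2d1b1 and Mcpt8, reach 0 in a WT library.

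The 12 largest falls were in St6gal1, Itgae, Abca3, Fam71b, Cd6, Slc28a2b, Ifngr2, Cd8a, Btla, Gprin3, Ccr7 and Zfp683, chosen by the same rule. St6gal1, a sialyltransferase of the Golgi, was at 3.12, 2.67 and 1.43 CPM in KO and 47.2, 66.6 and 42.1 CPM in WT (log2 fold change -4.36 ± 0.22 (SE), edgeR adjusted p = 1.2e-08). Itgae, the alpha chain of the integrin that binds E-cadherin, was at 6.99, 12.2 and 13.4 CPM in KO and 98.8, 167 and 109.5 CPM in WT, and Abca3, a lipid transporter, at 2.37, 2.51 and 1.65 CPM in KO and 19.5, 31.8 and 21.5 CPM in WT. WT replicate 2 held the highest value of all 3 genes. Cd6, a T cell surface receptor for the adhesion molecule ALCAM, was at 28.7, 31.7 and 22.2 CPM in KO and 238, 285 and 270.3 CPM in WT (log2 fold change -3.24 ± 0.11 (SE), edgeR adjusted p = 6.5e-10). Ifngr2, a chain of the interferon gamma receptor, was at 0.998, 1.88 and 1.32 CPM in KO and 12, 12.1 and 12.2 CPM in WT. The WT values of Ifngr2 were close to each other and far above all 3 KO values. Btla, an inhibitory receptor, had a log2 fold change of -2.53, Gprin3 of -2.49, Ccr7, which guides cells into lymph nodes, of -2.47, and Zfp683, which encodes the residency factor Hobit, of -2.47. The nucleoside transporter family member Slc28a2b was at 3.37, 2.25 and 0.769 CPM in KO and 17, 19.5 and 18.7 CPM in WT and Fam71b at 3.49, 3.24 and 3.95 CPM in KO and 36.1, 35.4 and 32.4 CPM in WT. Among abundant genes (at least 100 CPM in the higher group), Bcl11b, which commits precursors to the T cell lineage, was at 31.4, 29.6 and 23.9 CPM in KO and 113, 119.9 and 135 CPM in WT. The phospholipase Plcg1, which acts below the T cell receptor, was at 90.4, 97.3 and 69.97 CPM in KO and 284, 345 and 314 CPM in WT, and St8sia1, which makes the ganglioside GD3, at 37.3, 36.8 and 37.1 CPM in KO and 128, 139 and 131 CPM in WT.

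In absolute terms the largest gain was in Gzma, the granule protease granzyme A, at 1650.5, 1752 and 2299.9 CPM in KO and 727, 414 and 635 CPM in WT. Il2rb, the beta chain shared by the receptors for IL-2 and IL-15, was at 2475, 2523 and 2629.7 CPM in KO and 1696, 1574 and 1559.9 CPM in WT. Ccr2, a receptor for monocyte chemoattractant proteins, was at 938, 886 and 1061 CPM in KO and 499.5, 422 and 466 CPM in WT, and Ifitm1, an interferon-induced membrane protein, at 1768, 1718 and 1952 CPM in KO and 1252, 1060.2 and 875 CPM in WT. Pabpc1, which binds poly(A) tails, was at 2968, 2938 and 3213 CPM in KO and 2454, 2377 and 2471 CPM in WT. The groups were separated in all 5, as in 96.8% of all genes called. Over all genes tested, 25.4% had KO above WT without overlap. The mitochondrial transcripts mt-Nd1, mt-Cytb and mt-Co1 were also among the largest gains, with log2 fold changes of 0.62, 0.47 and 0.31. For mt-Co1 the groups overlapped, at 6082, 6369 and 5237 CPM in KO and 4059, 4685 and 5538 CPM in WT, and its edgeR adjusted p of 0.0368 went above 0.05 on leaving out KO replicate 1 (0.0847), KO replicate 2 (0.104), WT replicate 1 (0.0729) or WT replicate 2 (0.0737). In a fit of all 14 libraries of the study, neither mt-Co1 (edgeR adjusted p = 0.315) nor mt-Cytb (edgeR adjusted p = 0.117) was called. The largest losses were in Eef2, the translation elongation factor, at 8484, 8302 and 8878 CPM in KO and 10211, 10088 and 9443 CPM in WT, and in Ptprc, the phosphatase CD45, at 2014, 1915 and 1980.5 CPM in KO and 2793, 2941 and 2881 CPM in WT. With the log2 fold change in brackets here and below, losses also reached the intermediate filament gene Vim (-0.36), the ribosomal stalk gene Rplp0 (-0.24), the splicing factor Mbnl1 (-0.69), non-muscle myosin Myh9 (-0.41) and the actin regulator Coro1a (-0.33). Eef2 lost its call without WT replicate 2 (edgeR adjusted p = 0.0754).

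Many abundant genes held their level. For 832 genes (7.2% of those tested) the 95% interval of the log2 fold change lay within 0.2 of 0. The most abundant of these coded for thymosin beta (Tmsb4x, -0.00), the MHC class I genes B2m (-0.00), H2-K1 (-0.01) and H2-D1 (0.01), Thy1 (0.05) and the ribosomal protein gene Rps2 (0.04). B2m, the common light chain of MHC class I, was at 1878, 1967 and 2117 CPM in KO and 2159, 1794 and 2012 CPM in WT.

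Gene lists by function were counted next. They were chosen with earlier results of these data known, and each count is to be read against the 20.3% of genes called higher and 20.1% called lower over all genes tested. Of the 566 list members called, 142 (25.1%) lost their call on leaving out at least 1 library. Members under the filter's limit in each library of 1 group were tested through the other group alone and had to differ. Beside those marked below, these were Tns3, Tox2, Rab11fip5, Slc6a9, Me1, Mt3, Hdac11, Hlf and Fzd7, called higher, and Dtx1, called lower.

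Most of the cytotoxic granule genes tested were higher. Of 17 tested, 10 were higher and 1 lower, with a median log2 fold change of 0.41. The 10 were Prf1, granzymes and Fasl. The 6 not called were Srgn, Nkg7, Cst7, Ctsw, Ctsc and Tnfsf10. Srgn was at 284, 285 and 349 CPM in KO and 330, 280 and 288 CPM in WT. For Nkg7 the values were 706, 740 and 741 CPM in KO and 833, 715 and 758 CPM in WT. Gzmf and Gzmg were under the filter's limit of 1.13 CPM in each WT library, so they entered the test through KO counts alone and had to differ. Prf1 (ENSMUSG00000037202, chr10:61297833-61304680), the pore-forming protein perforin, was at 234, 234 and 298 CPM in KO and 23.7, 12.8 and 24.5 CPM in WT (log2 fold change 3.57 ± 0.16 (SE), edgeR adjusted p = 5.0e-09). The granzymes Gzmc, Gzmd, Gzme, Gzmf and Gzmg had log2 fold changes of 3.58, 5.52, 5.91, 4.49 and 6.06. They are near-identical neighbours on chromosome 14, and the split of reads among them is uncertain. Gzmk rose by less, at 16.3 ± 2.67 CPM in WT and 47.1 ± 3.82 CPM in KO. The death ligand Fasl was at 36.6 ± 4.86 CPM in WT and 49.2 ± 1 CPM in KO (log2 fold change 0.41 ± 0.09 (SE), edgeR adjusted p = 0.00234), and Gzmb at 1769.9 ± 323 CPM in WT and 2261 ± 94 CPM in KO, with an edgeR adjusted p of 0.0179 that was 0.0597 without KO replicate 3. The single fall, Gzmm (-0.34, edgeR adjusted p = 0.0475), lost its call on leaving out any library except KO replicate 2, and with DESeq2 (0.175).

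Genes of the machinery that carries and fuses granules were called in shares near those of all genes tested. Of 29 exocytosis genes tested 7 were higher (24.1%) and 6 lower (20.7%), with a median of -0.04. The shares over all genes tested were 20.3% and 20.1%. Stx3, a syntaxin, was at 8.36, 8.15 and 8.68 CPM in KO and 1.18, 1.26 and 0.998 CPM in WT. Stx11, the syntaxin required for granule release in lymphocytes, was at 27.4 ± 6.29 CPM in WT and 50.1 ± 2.95 CPM in KO, and Sytl2, a granule docking protein, at 93.3 ± 4.2 CPM in WT and 194 ± 18.5 CPM in KO. Lyst, the lysosomal trafficking regulator mutated in Chediak-Higashi disease, went the other way, at 145, 121 and 115 CPM in KO and 279, 375 and 193 CPM in WT. All 4 of these were called. Lysosomal genes were split, with 7 higher (24.1%) and 8 lower (27.6%) of 29. The cholesterol transporters of the lysosome, Npc1 (87, 77.5 and 89.9 CPM in KO and 163, 159 and 162 CPM in WT) and Npc2 (-0.64), were lower, as were Psap (-0.51) and Scarb2 (-0.49). The proteases Ctsl (0.72), Ctsd (0.32) and Lgmn (2.47) were higher. Lgmn and Laptm4b, 2 of the 7 higher, were tested through KO counts alone and had to differ. Autophagy genes had 5 higher (17.2%) and 4 lower (13.8%) of 29, below the shares of all genes tested. Among those higher were the cargo receptors Optn (19.8, 20.1 and 23.6 CPM in KO and 5.66, 5.78 and 5.79 CPM in WT) and Sqstm1 (318, 313 and 402 CPM in KO and 249, 223 and 227 CPM in WT). Map1lc3a (0.58, edgeR adjusted p = 0.0319) lost its call on leaving out KO replicate 1 (0.0806), KO replicate 3 (0.108), WT replicate 1 (0.0947) or WT replicate 3 (0.114), and with DESeq2 (0.0979) or thinned counts (0.073).

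Genes of the T cell receptor and its co-receptors were mostly lower. Of 19 tested, 14 were lower and 1 higher, with a median of -0.51. Cd8b1, the other CD8 chain, was at 114, 119 and 102 CPM in KO and 583, 549 and 548 CPM in WT. Trac, the constant region of the receptor alpha chain, was at 264 ± 10.03 CPM in WT and 96.7 ± 5.53 CPM in KO and Cd5, a surface brake on receptor signalling, at 96.3 ± 8.54 CPM in WT and 22.5 ± 2.83 CPM in KO. Themis, a thymocyte selection adaptor, was at 252 ± 9.59 CPM in WT and 95.7 ± 2.74 CPM in KO and the kinase Lck at 972 ± 18.3 CPM in WT and 681 ± 18.6 CPM in KO. The rise was in the adaptor Lcp2 (490.2 ± 11.4 CPM in WT and 566 ± 25.5 CPM in KO), whose call was lost without KO replicate 1. The receptor segments that OT-I cells carry were lower too: Trbv12-1 was at 67.6, 69.9 and 71.1 CPM in KO and 149, 146 and 144 CPM in WT, and Trav14-1 had a log2 fold change of -0.84, a call lost on leaving out KO replicate 2 or 3 or WT replicate 1 or 2, and with DESeq2 (adjusted p = 0.0774).

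Below the receptor, calcium signalling genes were lower in 16 of 33 tested and higher in 1, with a median of -0.19. Lower genes included the channels Kcna3 (36.8, 31.8 and 27.7 CPM in KO and 56.1, 74.5 and 52.2 CPM in WT), Kcnk5 (-0.90) and Kcnn4 (-0.63), and the endoplasmic reticulum calcium release channels Itpr1 (-0.82) and Itpr2 (-0.80). The calcium sensor Stim2 (-0.53) and the entry channels Orai1 (-0.39) and Orai2 (-0.47) were also lower, with the kinase Camk4 (39.2, 39.4 and 43.7 CPM in KO and 74.8, 86.1 and 65.4 CPM in WT). The calcium-dependent factors Nfatc1 (-0.34) and Nfatc2 (-0.46) were lower by smaller amounts. The rise was in the calcium pump Atp2a3 (0.16), which was not called on leaving out any library except WT replicate 2, where 3 genes were called higher.

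Other signalling lists held falls beside fewer rises. In the NF-kB list, 10 of 29 were lower and 3 higher. Nfkbid, a nuclear IkB protein, was at 46.5, 38.7 and 35.8 CPM in KO and 18.8, 22 and 21.8 CPM in WT, while Traf5 (-0.72), Nfkbie (-0.72) and Traf3 (-0.49) were lower. In the JAK-STAT list, 8 of 26 were lower and 3 higher. Stat5b, which carries IL-2 signals, was at 57.4, 53.5 and 60.1 CPM in KO and 102, 117 and 111 CPM in WT, and its close relative Stat5a was not called (59.5 ± 3.27 CPM in WT and 57.1 ± 0.251 CPM in KO). Jak1 (-0.46) and Jak3 (-0.28) were lower and Jak2 higher (0.58). The 3 genes called higher were 1 without KO replicate 1, without KO replicate 2 or without WT replicate 1. In the PI3K list, 12 of 33 were lower and 7 higher. Pik3ip1, an inhibitor of PI3K, was at 32.7, 36.1 and 36.4 CPM in KO and 86.5, 96.2 and 77.2 CPM in WT, the phosphatase Inpp4b at 269, 271 and 266 CPM in KO and 506, 562 and 423 CPM in WT and the regulatory subunit Pik3r2 at 26, 26.1 and 27 CPM in KO and 8.61, 9.39 and 10.1 CPM in WT. Of these, Pik3r2 was higher in KO.

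G protein signalling combined large rises with many moderate falls, 9 higher and 18 lower of 38. Rgs16, a protein that turns off G protein alpha subunits, was at 14.4, 13.4 and 16.9 CPM in KO and 1.06, 0.361 and 0.599 CPM in WT (log2 fold change 4.42 ± 0.24 (SE), edgeR adjusted p = 2.2e-08). Rgs16 was under the filter's limit in each WT library, so it was tested through KO counts alone and had to differ. Its relatives Rgs2 (26.8, 28.7 and 35.4 CPM in KO and 4.72, 2.17 and 3.89 CPM in WT) and Rgs1 (35 ± 5.96 CPM in WT and 122 ± 14 CPM in KO) were also higher, as was the cAMP phosphodiesterase Pde4a (37.7, 29.6 and 29.2 CPM in KO and 4.84, 4.87 and 5.04 CPM in WT). The phosphodiesterases Pde4b (-0.62), Pde4d (-0.53) and Pde3b (-0.77) were lower. So were the lymphocyte receptors Gpr55 (94.4 ± 9.67 CPM in WT and 25.6 ± 1.41 CPM in KO), P2ry10 (72.8 ± 0.106 CPM in WT and 30.5 ± 1.17 CPM in KO) and Gpr18 (40.9 ± 5.9 CPM in WT and 18.9 ± 0.989 CPM in KO).

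Rhoh, a GTPase of blood cells needed for T cell receptor signalling, was lower, at 47.5, 46.7 and 42.4 CPM in KO and 114, 117 and 118 CPM in WT, and Rhob, an endosomal GTPase, was higher, at 61.8, 66.8 and 64.7 CPM in KO and 30.1, 21.8 and 26 CPM in WT. The exchange factors Dock2 (-0.38), Dock10 (-0.38) and Dock11 (-0.59) were lower too. Actin and focal adhesion genes were lower in 16 and higher in 7 of 42, and higher in 11 without WT replicate 3. Beside Tns3 and Scin, the unconventional myosin Myo1e was higher, at 59.7, 49 and 61.1 CPM in KO and 12.1, 22.6 and 17.2 CPM in WT, with vinculin, Vcl (17.8 ± 2.46 CPM in WT and 33 ± 3.5 CPM in KO). Gelsolin, Gsn, a relative of Scin, was lower (86.3 ± 8.35 CPM in WT and 62 ± 8.56 CPM in KO).

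Matrix, guidance and membrane-organising genes held many of the weakly expressed genes that rose. Of 39 matrix genes 25 passed the filter, and 11 of these were higher and 7 lower. Adamts14, a procollagen-processing protease, was at 26.7, 25.2 and 33.1 CPM in KO and 1.3, 0 and 0.998 CPM in WT. Plau, the urokinase protease, was at 0.641 ± 0.23 CPM in WT and 7.37 ± 2.02 CPM in KO, while its receptor Plaur was lower, at 2.24 ± 0.739 CPM in WT and 0.332 ± 0.0843 CPM in KO. Adam8 (149 ± 11.1 CPM in WT and 272 ± 16.1 CPM in KO) and Serpine2, a protease inhibitor (55.5 ± 13.4 CPM in WT and 108 ± 12.3 CPM in KO), were higher and Adam19 (189.9 ± 9.03 CPM in WT and 116 ± 8.25 CPM in KO) lower. Of 30 semaphorin, plexin and ephrin genes 18 were tested, and 12 were higher and 4 lower, with a median of 1.00. Sema4c was at 20.1, 17.9 and 22.8 CPM in KO and 0.826, 0.902 and 0.849 CPM in WT, Sema6d at 61.3, 65.1 and 89.4 CPM in KO and 13.2, 6.68 and 13.4 CPM in WT and Sema7a at 5 ± 2.82 CPM in WT and 21.4 ± 1.73 CPM in KO, and the receptor Nrp1 at 12.2, 12 and 15 CPM in KO and 2.59, 1.99 and 1.05 CPM in WT. The abundant Sema4d, a semaphorin of T cells, was lower, at 1068 ± 21 CPM in WT and 737 ± 23.5 CPM in KO. Of 19 tetraspanin and EMP genes tested 7 were higher and 5 lower, among them Cd63 (4.99, 4.65 and 7.8 CPM in KO and 0, 0 and 0.299 CPM in WT) and Cd9 (90.9, 98.2 and 107 CPM in KO and 31.7, 28.7 and 33.5 CPM in WT), both higher. No WT library reached the filter's limit for 3 of the 11 matrix genes higher, 3 of the 12 semaphorin, plexin and ephrin genes and 2 of the 7 tetraspanin and EMP genes, and no KO library for Plaur. Such members had to differ, so these counts describe the genes tested and not the whole lists.

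Lipid mediator genes had 10 higher and 4 lower of 26, where Alox5, Ptgs1 and Spns2 were tested through KO counts alone. The leukotriene receptor Ltb4r1 was at 12.1 ± 3.53 CPM in WT and 31.9 ± 5.25 CPM in KO, the cyclooxygenase Ptgs1 at 0.521 ± 0.0426 CPM in WT and 3.57 ± 0.885 CPM in KO and the ceramide synthase Cers6 at 27.6, 25.2 and 32.2 CPM in KO and 11.2, 10.5 and 10.03 CPM in WT. The sphingosine-1-phosphate receptor S1pr1, counted with the naive genes, was at 117 ± 8 CPM in WT and 46.4 ± 5.91 CPM in KO and S1pr4 at 78.1 ± 7.15 CPM in WT and 50.5 ± 4.16 CPM in KO. Both receptors were called lower, while the exporter Spns2 was among the largest rises.

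Naive and memory genes were nearly all lower, 19 of 20, with a median of -0.88. They included Il6ra (5.87, 7.63 and 3.95 CPM in KO and 27.8, 33.8 and 30.5 CPM in WT), Dapl1 (3, 3.87 and 4.5 CPM in KO and 16.9, 15.7 and 19.4 CPM in WT), the genome organiser Satb1 (398 ± 23.9 CPM in WT and 139 ± 8.34 CPM in KO), the homing factor Klf2 (33.8 ± 3.53 CPM in WT and 12.2 ± 1.85 CPM in KO) and Tcf7, a transcription factor of stem-like T cells (719.9 ± 57.5 CPM in WT and 426 ± 14.1 CPM in KO). The exception was Myb, which was higher (20.5 ± 2.84 CPM in WT and 32.1 ± 1.22 CPM in KO). Transcription factors of lymphocytes divided, with 12 higher and 11 lower of 31 and a median of -0.00. Higher were Zeb2, a factor of terminal effector cells (10.2, 9.77 and 10.2 CPM in KO and 2.95, 4.15 and 2.15 CPM in WT), Prdm1, which encodes BLIMP-1 (36.3 ± 7.39 CPM in WT and 98.1 ± 7.45 CPM in KO), Maf (8.71 ± 4.11 CPM in WT and 28.2 ± 1.56 CPM in KO), Tox (10.3 ± 2.41 CPM in WT and 25.4 ± 1.51 CPM in KO) and Id2 (613 ± 84.7 CPM in WT and 969 ± 69.7 CPM in KO). Lower were Ets1 (386 ± 19.3 CPM in WT and 186 ± 4.38 CPM in KO), Ikzf1 (520.2 ± 18.4 CPM in WT and 363 ± 7.03 CPM in KO), Ikzf3 (179 ± 13.3 CPM in WT and 115 ± 3.83 CPM in KO) and Zeb1 (55.5 ± 1.37 CPM in WT and 37.4 ± 1.99 CPM in KO), beside Bcl11b. Tbx21, which encodes T-bet, was lower as well (13.9 ± 0.813 CPM in WT and 9.76 ± 1.66 CPM in KO), with an edgeR adjusted p of 0.0174 that was 0.0634 without KO replicate 1, 0.053 without WT replicate 1, 0.0529 with DESeq2 and 0.0597 in the fit of all 14 libraries. Nfil3 (edgeR adjusted p = 0.0181) lost its call without KO replicate 1 (0.0725) or WT replicate 3 (0.0886).

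Nuclear receptors were higher in 11 and lower in 3 of 21, with a median of 0.33, and the 3 were 1 without KO replicate 1. Nr4a3, induced by receptor stimulation in T cells, was at 22.7, 20.3 and 22.6 CPM in KO and 6.49, 3.43 and 6.04 CPM in WT, its relative Nr4a1 at 15.5, 16.3 and 13.5 CPM in KO and 6.02, 5.41 and 6.34 CPM in WT and the aryl hydrocarbon receptor Ahr at 27.3, 26.2 and 28.7 CPM in KO and 14, 11.6 and 12.8 CPM in WT. Ahr, grouped here by its ligand-activated mode, is not a member of the family by structure. The vitamin D receptor Vdr (4.03 ± 0.427 CPM in WT and 7.63 ± 1.72 CPM in KO) and Pparg (0.572 ± 0.24 CPM in WT and 2.59 ± 0.361 CPM in KO) were also higher, and the shared partner Rxra lower (52.4 ± 5.73 CPM in WT and 31.8 ± 2.6 CPM in KO). Pparg was tested through KO counts alone and had to differ. All 3 KO libraries were above all WT libraries for Nr4a1, Nr4a3 and Ahr, as for 25.4% of all genes tested. Clock genes were higher in 9 and lower in 3 of 19, and the 3 were 1 without KO replicate 2. The clock kinase Csnk1e was at 36.9, 37.9 and 35 CPM in KO and 18, 15.9 and 15.7 CPM in WT and Per2 at 28.6, 25.9 and 23.5 CPM in KO and 18.9, 21.8 and 16.2 CPM in WT. The repressor Cry2 was higher as well (33.8 ± 1.51 CPM in WT and 44.5 ± 3.54 CPM in KO).

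Notch and Wnt pathway genes were lower in 15 and higher in 4 of 29, and higher in 2 without KO replicate 1. The coactivator Maml2 was at 39.9, 36 and 34.9 CPM in KO and 76.6, 85.2 and 68.7 CPM in WT, the corepressor Tle1 at 3.12, 3.71 and 2.53 CPM in KO and 9.32, 8.66 and 6.84 CPM in WT and the Notch inhibitor Numb at 32.1 ± 1.9 CPM in WT and 25.2 ± 0.749 CPM in KO, all lower, while the ligand Jag2 was higher, at 25.3, 23.9 and 18.9 CPM in KO and 10.7, 14.4 and 10.3 CPM in WT. Ubiquitin ligases were lower in 10 and higher in 6 of 26, with 5 lower without KO replicate 2. Rnf128, the anergy-linked ligase GRAIL, was at 10.6, 11.6 and 12.6 CPM in KO and 2.48, 1.44 and 2.79 CPM in WT, and Peli1, a brake on T cell activation in mice, at 57, 61.9 and 64 CPM in KO and 104, 119 and 116 CPM in WT. Nedd4 was higher (154 ± 5.64 CPM in WT and 222 ± 11.2 CPM in KO) and its relative Nedd4l lower (36.8 ± 1.82 CPM in WT and 27.2 ± 2.24 CPM in KO).

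Folding enzymes of the secretory pathway were mostly higher. Of 27 endoplasmic reticulum chaperone and unfolded protein response genes, 16 were higher and 3 lower, with a median of 0.21. The disulfide isomerase Pdia6 was at 164, 177 and 171 CPM in KO and 109, 97.5 and 108 CPM in WT, Creld2 at 35.1, 39.4 and 34.6 CPM in KO and 24.4, 22.7 and 25.1 CPM in WT, the chaperone Hspa5, known as BiP, at 446 ± 28.5 CPM in WT and 618 ± 10.9 CPM in KO and Hsp90b1 at 367 ± 40.2 CPM in WT and 512 ± 13.6 CPM in KO. The stress sensor Ern1 was higher too (17.6 ± 2.62 CPM in WT and 25.2 ± 1.23 CPM in KO). The 3 lower genes, Herpud1 (-0.22), Edem1 (-0.21) and Dnajc3 (-0.18), were 0 without KO replicate 1, KO replicate 2 or WT replicate 1. MHC class I presentation changed little, with 4 higher and 2 lower of 34. The chaperone Calr was higher (594, 651 and 624 CPM in KO and 430.2, 368 and 428 CPM in WT) and the MHC class I transactivator Nlrc5 lower (279.5, 271 and 269.6 CPM in KO and 374, 403 and 340.4 CPM in WT). The 4 were 2 without KO replicate 1, KO replicate 2 or WT replicate 2, and the 2 were 5 without WT replicate 2.

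Changes in protein synthesis genes were small. Of 20 aminoacyl-tRNA synthetases 6 were higher and 0 lower, with Iars at 111, 108 and 106 CPM in KO and 79.3, 88.8 and 86.7 CPM in WT. In the lower direction 0 had an unadjusted p under 0.05 in edgeR and 0 were called with DESeq2. Ribosome biogenesis genes were higher in 13 and lower in 1 of 35, with a median of 0.14. The nucleolar protein Bop1 was at 127, 121 and 104 CPM in KO and 89.5, 84.7 and 83.5 CPM in WT and Mycn at 93.6, 86 and 79.97 CPM in KO and 61.6, 52.2 and 62.5 CPM in WT. The 13 were 6 without KO replicate 1 and 7 without KO replicate 2. The fall, Utp14a (-0.20), lost its call on leaving out any library except WT replicate 3, and with DESeq2 (adjusted p = 0.128). Polr1b, a subunit of RNA polymerase I, was at 104, 96.5 and 71.2 CPM in KO and 64.8, 75.6 and 62.2 CPM in WT and lost its call without KO replicate 1 (edgeR adjusted p = 0.066) or KO replicate 2 (edgeR adjusted p = 0.0527). Genes of the large ribosomal subunit, with the symbol stem Rpl, had 8 lower (17.4%) and 0 higher of 46, and those of the small subunit, with the stem Rps, 9 lower (21.4%) and 6 higher (14.3%) of 42. Neither share of falls was far from the 20.1% of all genes. Among Rpl genes 1 was higher at an unadjusted p under 0.05 in edgeR and 0 with DESeq2, and 3 were called higher without WT replicate 1. The falls depended on single libraries: the 8 ranged from 1 without KO replicate 2 to 20 without WT replicate 3, and the 9 from 1 without KO replicate 1 to 19 without WT replicate 3. The 6 Rps rises were 2 without KO replicate 2.

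RNA processing genes were higher in part. Splicing factors had 13 higher and 4 lower of 38, and the 13 were 6 without KO replicate 1 or KO replicate 2. Hnrnpll, which governs CD45 splicing in T cells, was at 121, 111 and 116 CPM in KO and 79.3, 78.3 and 86.1 CPM in WT, and Prpf19 at 164 ± 7.03 CPM in WT and 225 ± 7.5 CPM in KO. The muscleblind genes Mbnl1 (998, 977 and 989 CPM in KO and 1603, 1649 and 1533 CPM in WT) and Mbnl2 (37.2, 36 and 36.9 CPM in KO and 57.3, 69.7 and 53.1 CPM in WT) and Celf2 (489.5 ± 13.7 CPM in WT and 382 ± 26.9 CPM in KO) were lower. Elongation factors of RNA polymerase II, the machinery with which DOT1L associates, had 6 higher (20%) and 2 lower (6.67%) of 30, with a median of -0.01. That share of rises was near the 20.3% of all genes tested. Ell2 was at 26.1, 26.3 and 35.5 CPM in KO and 19.1, 15 and 13.9 CPM in WT, Eaf1 at 233, 235 and 237 CPM in KO and 170.4, 161 and 166 CPM in WT and Cdk9 at 174 ± 6.57 CPM in WT and 217 ± 4.93 CPM in KO, all higher, and Setd2, a histone methyltransferase that travels with the polymerase, was lower, at 164, 152 and 164 CPM in KO and 198, 221 and 187 CPM in WT. Without KO replicate 1 the 6 were 3, and the 2 were 1 without KO replicate 1, 2 or 3 or WT replicate 2.

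Chromatin remodelling genes were lower in 16 of 33 and higher in 0, with a median of -0.23. They came from several complexes. The BAF subunits Arid1b (94, 94.7 and 98 CPM in KO and 148, 166 and 142 CPM in WT), Arid1a (-0.37), Smarca2 (-0.44) and Pbrm1 (-0.33) were lower. So were Bptf of the NURF complex (168, 157 and 173 CPM in KO and 242, 279.6 and 205 CPM in WT), the CHD genes Chd8 (188, 174 and 159 CPM in KO and 232, 289 and 215 CPM in WT), Chd3 (-0.42) and Chd2 (-0.41), and the methyl-CpG binding gene Mbd2 (-0.35). No fall exceeded that of Arid1b, with a log2 fold change of -0.66. In the higher direction 1 gene had an unadjusted p under 0.05 in edgeR, 0 were called with DESeq2, and 1 was called without WT replicate 3. Acetyltransferase and deacetylase genes had 7 lower and 3 higher of 34, with 5 higher without WT replicate 3. Hdac7, a deacetylase abundant in T cells, was at 345, 320.0 and 302 CPM in KO and 537, 610.1 and 547 CPM in WT and Hdac5 at 68.4, 71.6 and 72.8 CPM in KO and 99.4, 109 and 109.6 CPM in WT, while Hdac1 was higher (149 ± 6.91 CPM in WT and 174 ± 8.2 CPM in KO). Among 16 histone genes 4 were higher and 1 lower, with the linker histone H1f0 at 104, 99.8 and 109.6 CPM in KO and 66.6, 58.8 and 65.4 CPM in WT and H2az2 at 73.5, 77.6 and 88 CPM in KO and 104, 104 and 115 CPM in WT. Of the 4 higher, Macroh2a2 and H1f10 were tested through KO counts alone and had to differ. The single lower gene became 2 without WT replicate 1 or 3 and 3 without WT replicate 2. By symbol stem, the zinc finger genes Zfp had 73 lower (25.9%) and 19 higher (6.74%) of 282, and the plant homeodomain finger genes Phf 10 lower and 0 higher of 20 (0 higher at an unadjusted p under 0.05 in edgeR and 0 with DESeq2). Without KO replicate 2 the Zfp genes were lower in 48 and higher in 12, and without KO replicate 1 higher in 12. Without WT replicate 3, 2 Phf genes were higher.

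Metabolic lists were near the background or split. Fatty acid genes had 12 higher and 6 lower of 36. The desaturase Scd1 was at 45.9, 45.3 and 42.8 CPM in KO and 11.1, 10.1 and 10.4 CPM in WT (log2 fold change 2.09 ± 0.09 (SE), edgeR adjusted p = 3.8e-09), the lipid droplet protein Plin2 at 24.3, 26.1 and 35.3 CPM in KO and 13.6, 9.75 and 11.9 CPM in WT and the desaturase Fads2 at 29.9 ± 5.15 CPM in WT and 57.8 ± 7.73 CPM in KO, all higher, and the elongase Elovl5 was lower, at 269 ± 8.3 CPM in WT and 157 ± 6.3 CPM in KO. The TCA cycle and its feeding enzymes had 7 higher and 5 lower of 32, with Dlat of the pyruvate dehydrogenase complex at 56, 54 and 55.7 CPM in KO and 34.7, 32.9 and 36.2 CPM in WT. The 5 were 3 without KO replicate 1 or KO replicate 2. One-carbon and nucleotide genes had 9 in each direction of 36, with Pfas (0.55) and Mthfd1 (0.43) higher and Ada, adenosine deaminase, lower (10.7, 9.36 and 9.45 CPM in KO and 17.1, 17.5 and 17.8 CPM in WT). Without KO replicate 2 the 9 higher were 5. Redox genes had 11 in each direction of 34. The metallothioneins Mt1 (201, 203 and 225 CPM in KO and 109, 65.2 and 83.3 CPM in WT) and Mt2 (149, 151 and 185 CPM in KO and 76.9, 40.4 and 51.6 CPM in WT) and Nqo1 (4.72 ± 1.84 CPM in WT and 10.6 ± 0.313 CPM in KO) were higher, and Mgst2 (45.7, 35.5 and 44.7 CPM in KO and 100.3, 125 and 87.4 CPM in WT) and the glucose-responsive Txnip (490.4 ± 22.9 CPM in WT and 254 ± 17 CPM in KO) lower. The 11 lower were 7 without KO replicate 1 or KO replicate 2. Amino acid and nucleoside transporters had 5 higher and 6 lower of 23, with Slc7a5, the large neutral amino acid carrier, higher (258 ± 26.8 CPM in WT and 334 ± 13.8 CPM in KO) and Slc43a2 lower (28.1, 27.4 and 25.4 CPM in KO and 52.5, 64.1 and 62 CPM in WT). Over all 188 genes with the stem Slc, 57 (30.3%) were higher and 37 (19.7%) lower.

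**Figure D4:**
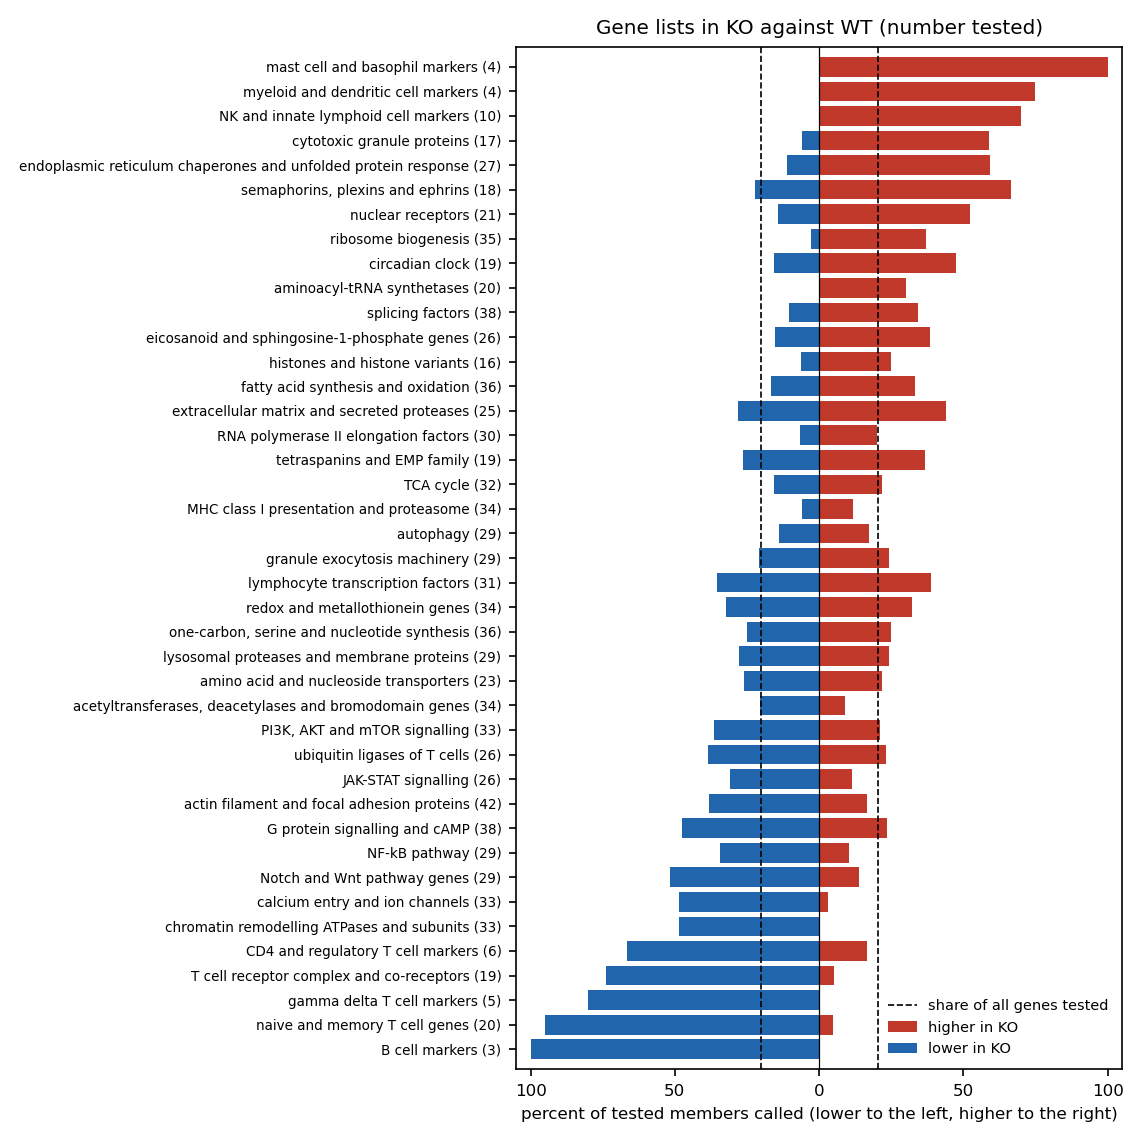
Bars give, for each gene list shown, all with at least 3 members tested (number in brackets), the percent of tested members called higher (right, red) and lower (left, blue) in KO. Dashed lines mark the shares of all genes tested, 20.3% higher and 20.1% lower. Naive, T cell receptor and chromatin remodelling genes extend to the left and granule, chaperone and natural killer genes to the right.

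Markers of other cell types were counted as a check of what the cultures held. Of 17 natural killer and innate lymphoid markers 10 were tested and 7 were higher and 0 lower (2 at an unadjusted p under 0.05 in edgeR, 0 with DESeq2), with a summed level of 609.8 to 748 CPM in KO and 255 to 303 CPM in WT. Fcer1g, the signalling chain of Fc and natural killer receptors, was at 54.2, 52 and 74.8 CPM in KO and 4.6, 4.33 and 4.09 CPM in WT, its partner adaptor Tyrobp at 8.86, 8.05 and 11.5 CPM in KO and 1.06, 0 and 0.948 CPM in WT, Klrb1c at 15.4 ± 6.11 CPM in WT and 73.1 ± 8.08 CPM in KO and the SLAM family receptor Cd244a at 143, 142 and 176 CPM in KO and 26.8, 28.2 and 25.1 CPM in WT. Ncr1 and Tyrobp were tested through KO counts alone and had to differ, while the other 5 reached the filter's limit in at least 1 WT library. Kit is also a member of this list, as 1 of its 7 rises, and is counted again below with the mast cell markers. Klre1 (2.25, 3.29 and 4.06 CPM in KO and 4.25, 3.43 and 5.84 CPM in WT) and Klri2 (1.87, 2.72 and 0.989 CPM in KO and 2.71, 4.33 and 3.14 CPM in WT) were not called. Il18r1 was not called either, at 229, 204 and 218 CPM in KO and 186, 223 and 193 CPM in WT. Its level is a large part of the summed level in both groups. Klra7 was at 0 in all KO libraries and at 0.354, 0.18 and 0.299 CPM in WT. Leaving out KO replicate 2 or WT replicate 2 made 1 marker lower, and with no filter 3 were lower. Of 12 mast cell and basophil markers 4 were tested and called higher, at 100.6 to 135 summed CPM in KO and 15.5 to 20.4 in WT. These were Kit, the receptor for stem cell factor (109.7, 85.1 and 113 CPM in KO and 15.7, 19.5 and 14 CPM in WT), Mcpt8, Cma1 (0.0333 ± 0.0576 CPM in WT and 2.31 ± 0.665 CPM in KO) and Cpa3 (7.61, 4.34 and 6.04 CPM in KO and 0.59, 0.722 and 0.349 CPM in WT), while 7 others, among them Fcer1a, Ms4a2, Gata2 and Mcpt4, had 0 counts in all 6 libraries. Mcpt8, Cma1 and Cpa3 were tested through KO counts alone, so they had to differ, and with a minimum of 10 CPM 1 of the 4, Kit, was left. Of 17 myeloid and dendritic markers 4 were tested and 3 were higher, at 46.0 to 64.2 summed CPM in KO and 17.5 to 21.1 in WT. These were Itgax (33.3, 25.8 and 36 CPM in KO and 7.43, 6.86 and 9.18 CPM in WT), Itgam (0.793 ± 0.61 CPM in WT and 4.69 ± 1.67 CPM in KO) and H2-Ab1 (8.61, 9.2 and 10.1 CPM in KO and 2.71, 3.79 and 3.79 CPM in WT), and 4 markers, among them S100a8 and Elane, were at 0 in all 6 libraries.

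Most tested markers of other lymphocytes were lower. Of 13 B cell markers 3 were tested and called lower, 1 of them, Ighd, through WT counts alone, at 119 to 139 summed CPM in KO and 472 to 585 in WT, of which nearly all was Ighm, the immunoglobulin mu chain (116, 134 and 114 CPM in KO and 461, 569.7 and 518 CPM in WT). A further 4, Ms4a1 and Pax5 among them, were at 0 in all 6 libraries. Of the 5 gamma delta markers tested 4 were lower, at 114 to 121 summed CPM in KO and 206 to 264 in WT. The gamma chain constant gene Trgc4 was at 1.25, 0.993 and 0.989 CPM in KO and 13.2, 13.2 and 9.58 CPM in WT and the delta chain gene Trdc at 174 ± 19.7 CPM in WT and 98.1 ± 3.74 CPM in KO. Of 6 CD4 and regulatory T cell markers tested 4 were lower and 1 higher, at 237 to 272 summed CPM in KO and 419 to 433 in WT. Most of this sum was Il2ra, and Cd4 itself did not exceed 0.769 CPM in any library. Foxp3, the regulatory T cell factor, was at 1.25, 1.67 and 0.769 CPM in KO and 3.54, 8.66 and 6.24 CPM in WT, Il2ra at 159, 148 and 171 CPM in KO and 318, 289 and 294 CPM in WT, Ctla4 at 22.1, 22.1 and 30.5 CPM in KO and 41.8, 53.1 and 45.2 CPM in WT, and the CD4 lineage factor Zbtb7b, the member that was higher, at 20.7 ± 0.207 CPM in WT and 33.8 ± 2.31 CPM in KO. Erythroid and platelet markers summed to 0.749 to 1.98 CPM in KO and 1.80 to 2.59 in WT, with 1 tested and not called in the comparison of all libraries (Itga2b, edgeR adjusted p = 0.0586), though called lower without KO replicate 3 (edgeR adjusted p = 0.0244). Of the fibroblast and endothelial markers 2 were tested and 1, Pecam1, which T cells also express, was lower (41.3, 43 and 45.5 CPM in KO and 78.1, 73.8 and 66.5 CPM in WT). The part of any of these cell types in the results above was not tested.

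**Figure D5:**
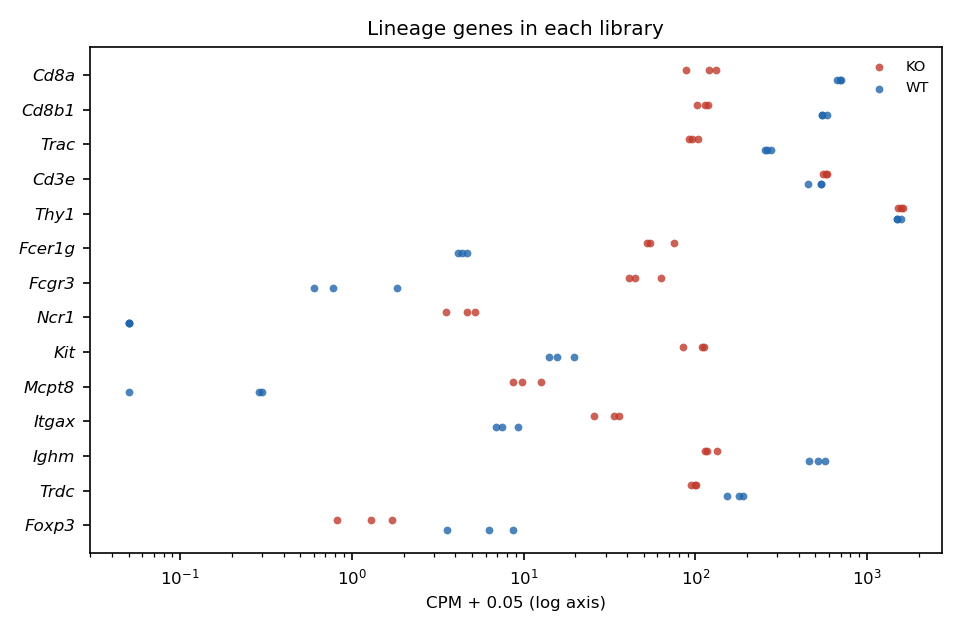
Points are single libraries, as CPM plus 0.05 on a log axis, for genes of T cells and of other lineages. Cd3e and Thy1 lie close together in KO (red) and WT (blue), Cd8a, Cd8b1, Trac, Ighm, Trdc and Foxp3 lie lower in KO, and Fcer1g, Fcgr3, Ncr1, Kit, Mcpt8 and Itgax higher.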

How the data were processed

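The authors deposited a table of raw read counts per Ensembl gene with 1 column per library and no normalization, and the 6 KO and WT columns were taken from it by library name. Per the labels' protocols, RNA with an integrity number above a limit was used for TruSeq Stranded mRNA libraries. Per the submitters' processing notes, TopHat2 2.1, Bowtie 1.1, TopHat and HTSeq were used with build mm10. Which strand setting and annotation release the counting used is not given in the sources used here, so reads of overlapping and antisense genes cannot be told apart. Of 55486 genes, 54906 (99.0%) had the coordinates of GENCODE mouse release 21, which supplied names and spans. The 1 unnamed line, with 0 counts, was dropped.

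The test was the quasi-likelihood F-test of edgeR 4.0.16 (R 4.3.3), after TMM scaling and filterByExpr (minimum count 10, minimum total 15), on 3 against 3 libraries, without covariates. Benjamini-Hochberg adjusted p-values were taken over all 11570 genes tested and called at 0.05. Standard errors are the absolute log2 fold change divided by the square root of F. CPM were computed with the TMM-scaled totals and are given as mean ± SD. The script was tested on simulated data. A count of 0 over a group was set to a floor of 3 counts. Intervals of count ratios cover counting error only, as reads carry no molecular identifiers. No replicate was a copy of another (chi-square per degree of freedom 2.05 to 10.8).

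The members, the 45 gene lists and the tests were chosen with earlier results of these data known, so a list's count is no independent support. Named genes were the label checks and, per side, the 12 largest changes at 5 CPM or more in the higher group, with at least 4 counts in the lower group and no overlap. Added were the 8 largest at 100 CPM, the 8 largest differences in CPM, the 6 most abundant steady genes, up to 3 genes from each list, and up to 6 genes near 0 in 1 group. Predicted genes and receptor segments were left out of the largest changes. Other list members named in the text were chosen after their values were seen. One of these lists and a gene of another are not reported here. Of 1217 list entries 1 symbol was not matched, and the others gave 1213 list members after entries for the same gene were merged. The alternatives run were RLE scaling, no filter, a minimum of 10 CPM, DESeq2 1.42.0, glmTreat at 1.5-fold, a fit of all 14 libraries, a replicate block, labelled sex, counts thinned to 5643724 and each library left out. A covariate for Xist or Ddx3y was added after seeing the data. The DMSO and EPZ libraries entered only the fit of all 14.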

Additional observations from a re-analysis of the deposited data

How the results depend on the processing

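Under the 16 alternatives run, no gene called in both fits changed direction. The numbers of genes higher and lower stayed within 1.5 times of 2345 and 2331 except with glmTreat, which by construction asks for more than a 1.5-fold change and called 765 and 305. The 2-fold counts of 802 higher and 255 lower were 1231 and 467 with no filter, where 21646 genes were tested, and 203 and 114 with a minimum of 10 CPM, where 8444 were tested. In all of these the rises of at least 2-fold outnumbered the falls. DESeq2 called 2054 higher and 1820 lower (929 and 311 at 2-fold). RLE scaling gave 2392 and 2263, and no alternative moved the median of all genes by 0.02. Leaving out 1 library gave 1877 to 2280 higher and 1628 to 2299 lower, with 789 to 897 and 229 to 358 at 2-fold.

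The replicate numbers did not pair the libraries: same-numbered libraries deviated from their group means with correlations of 0.04, -0.16 and -0.17, and 0 of 3 was closest to its own number. A fit with the replicate block called 2128 higher and 2137 lower (810 and 271 at 2-fold). With the block, mt-Co1 (edgeR adjusted p = 0.0825), Eef2 (0.205) and Rplp0 (0.0852) were not called.

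The labelled sex as a covariate gave 2371 and 2384 calls, and the Xist or Ddx3y covariate, chosen after seeing the data, 2327 and 2330. Counts thinned to the smallest library gave 1924 and 1974, where 10937 genes were tested. Of the 90 counts of list members higher or lower, 17 moved by more than 1.5 times with a minimum of 10 CPM, 16 each without KO replicate 1 and without KO replicate 2, 6 to 9 without one of the other libraries, 8 with DESeq2, 7 with no filter, 7 with the replicate block and 68 with glmTreat. Depth limits the genes of the lowest CPM quintile most, where the smallest library, with 5643724 counts, holds few reads per gene.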
